A study of Homo sapiens with 30 samples.

Results

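The BCL2 family decides at the mitochondrial surface whether a stressed cell lives or dies. Survival members (BCL2, BCL2L1, which encodes BCL-XL, and MCL1) bind and restrain the effectors BAX and BAK1, which form pores in the outer mitochondrial membrane and release cytochrome c. The BH3-only members sense damage or stress and either occupy the survival proteins or engage the effectors directly: BID, BBC3 (PUMA), PMAIP1 (NOXA), BCL2L11 (BIM) and HRK (Harakiri, first known from neurons). Neuroblastoma arises from the sympathetic lineage, and its cells are known to lean on BCL2 or MCL1 for survival.

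These 10 genes were taken by name, with no threshold on their values, from tables that listed 62710 genes for IMR32 and 57905 each for SK-N-BE(2)c and NGP. The choice was made with earlier results of these data known. All 10 had a mean normalized count of at least 10 over the libraries of each line and were tested in all 3 lines. RNA had been sequenced from 3 established, MYCN-amplified neuroblastoma lines. Every culture had received 100 nM of an antisense oligonucleotide (ASO) by lipid transfection, the controls included: ASO1, ASO2 or ASO10, which are directed against NESPR, a long non-coding RNA, or the negative control ASO, called NCA. IMR32 had 4 libraries per group (ASO1, ASO2, NCA), and SK-N-BE(2)c and NGP had 3 per group (ASO2, ASO10, NCA). No group was left untransfected among the libraries used, the time to harvest is not given in the sources used here, and the targeted transcript itself was not analysed here. The study's title connects NESPR with stress and cell death, so the comparison asks how the transcripts of the death machinery stood when it was targeted.

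Reads per library ran from 9393587 to 15060356 over the 30 libraries. Replicates are numbered in the labels, which do not say whether they were separate cultures, so p-values measure the spread between these libraries, which may be technical. The 7 adrenergic neuroblastoma markers used here (PHOX2A, HAND2, GATA3, TH, DBH, ISL1 and MYCN) all had reads in each line, with TH lowest in IMR32 at 20.1 to 33.0 normalized counts. The T cell gene CD3E and the epithelial keratin KRT5 were at 0 in every library, but other genes of the non-neuroblastoma lists had reads. The fibroblast gene COL1A1 stood at 630 to 962 normalized counts in IMR32 and 118 to 268 in NGP, and DCN at 208 to 359 in SK-N-BE(2)c. The endothelial gene CDH5 stood at 33.3 to 55.7 in IMR32. The epithelial gene EPCAM reached 27.5 in NGP, and the immune gene PTPRC reached 4.72 in IMR32. The summed adrenergic markers lay at 33439 to 37261 with ASO2 and 34060 to 36666 with ASO10 against 44921 to 50851 with NCA in SK-N-BE(2)c, and at 64371 to 69653 with either ASO against 71522.5 to 73995 in NGP. In IMR32 they lay at 42856 to 51094 with the ASOs and 48843 to 51393 with NCA. The 6 mesenchymal-type markers summed to 4063 to 4864 with the ASOs against 3542 to 3842 with NCA in SK-N-BE(2)c, to 11515 to 15334 against 10378 to 10545 in NGP, and to 2846 to 3654 against 2575 to 3106 in IMR32. MYCN was the largest term of the adrenergic sums (18322 to 32304 in SK-N-BE(2)c, 40482 to 50133 in NGP), and VIM of the mesenchymal-type sums. By single gene (limma adjusted p under 0.05), 3 adrenergic markers were higher and 4 lower with ASO2 in SK-N-BE(2)c. In NGP 1 was higher and 4 lower with ASO2, and with ASO10 6 were lower in each line. Of 4 mesenchymal-type markers tested in NGP, 3 were higher and 1 lower with ASO2, and 2 and 2 with ASO10. In SK-N-BE(2)c only 2 of them were tested: 1 was higher with ASO2, and 1 was higher and 1 lower with ASO10. In IMR32 3 adrenergic markers were lower with ASO1 and 2 with ASO2, and none was higher. Of 4 mesenchymal-type markers tested in IMR32, 1 was higher with ASO1 and 2 with ASO2, and none was lower. PRRX1, which defines the mesenchymal state, had at most 5.92 normalized counts in any library, and YAP1 was at 0 in all of NGP. The part of these marker shifts in the results below was not tested, and in bulk RNA fewer cells of a type and less RNA per cell cannot be told apart.

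Set by exon length, MCL1 was the most abundant of the 10 transcripts in each group of each line. With NCA its level per kilobase of exon in IMR32 was 632 ± 28.7 (SD, n = 4). It was 1564 ± 75.8 (n = 3) in NGP, and SK-N-BE(2)c had 968 ± 10.0. IMR32 was scaled apart from the other lines, so only the order within it is comparable. There PMAIP1 came next at 407 per kilobase, then BCL2L1 at 153, BCL2 at 98.6, BAX at 88.5 and BID at 72.8, and BBC3 was lowest at 22.8. BAX stood second in SK-N-BE(2)c and NGP, at 426 and 725 per kilobase, and HRK was last at 2.51 and 1.64. BCL2 was next to last in both, at 27.1 and 34.8. PMAIP1, BBC3, BID and BCL2L1 in NGP each overlapped with the next in that order, as did HRK and BAK1 in IMR32 and BCL2L11 and BBC3 in SK-N-BE(2)c. With the longest transcript in place of all exons MCL1 stayed first and HRK stayed last in SK-N-BE(2)c and NGP, but BAX passed BCL2 in IMR32 (169 against 155 per kilobase) and BAK1 took the lowest place there from BBC3 (35.6 against 39.4). BCL2L11 came below BCL2 in NGP (54.0 against 54.9), and BBC3 (293) and BID (292) came above PMAIP1 (202).

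**Figure D1:**
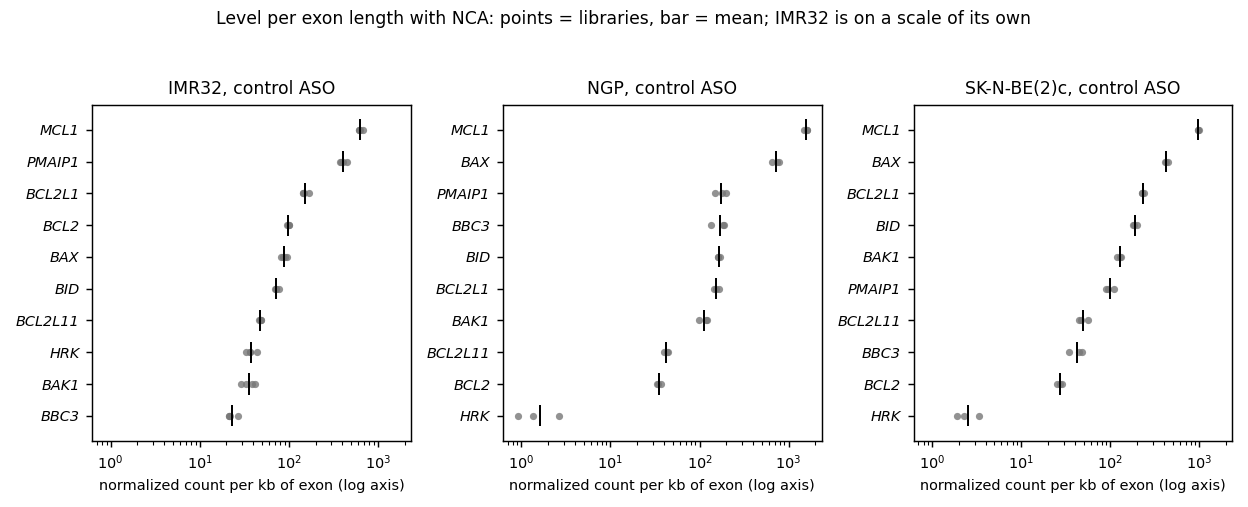
Normalized count per kilobase of exon (log axis) for the 10 genes in the control ASO libraries of each line, with a point per library and a bar at the mean, ordered from highest to lowest. MCL1 leads in each panel, at 632 to 1564 per kilobase. BBC3 comes last in IMR32 (22.8), and HRK does in NGP (1.64) and in the SK-N-BE(2)c panel (2.51).

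Against NCA the ASO-treated cells had less BCL2 and more BAK1 and BBC3 transcript in every line. MCL1 rose in 5 of the 6 contrasts. PMAIP1 rose in SK-N-BE(2)c and NGP but was called in IMR32 only with the replicate number in the model. BCL2L11 rose with ASO2 in each line, while BCL2L1 hardly moved. A gene was called at an adjusted p under 0.05 in limma on log2(normalized count + 1), with Benjamini-Hochberg adjustment over all genes tested, and all fold changes below are on that log2 scale, which understates those of low genes such as HRK. The contrasts of a line share their NCA libraries. BBC3 and BAK1 were called higher in all 6 contrasts, where 3.05% of the 11594 genes tested in all 3 lines were, and BCL2 was called lower in all 6, where 2.92% were.

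The RefSeq promoter windows of these 3 genes are shown because they are the members that moved one way throughout. Each is the stretch of 250 bases before the start site on GRCh38.p14, on the gene's own strand: BCL2 at chr18:63319770-63320019, minus strand, BAK1 at chr6:33580277-33580526, minus strand, and BBC3 at chr19:47232668-47232917, minus strand. Capitals mark a match to 1 of the searched motifs.
BCL2: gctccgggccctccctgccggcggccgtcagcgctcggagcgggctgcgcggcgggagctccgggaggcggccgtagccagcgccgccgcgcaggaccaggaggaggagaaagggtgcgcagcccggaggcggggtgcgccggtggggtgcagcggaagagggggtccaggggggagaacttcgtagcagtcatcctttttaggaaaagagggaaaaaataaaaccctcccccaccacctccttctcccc
BAK1: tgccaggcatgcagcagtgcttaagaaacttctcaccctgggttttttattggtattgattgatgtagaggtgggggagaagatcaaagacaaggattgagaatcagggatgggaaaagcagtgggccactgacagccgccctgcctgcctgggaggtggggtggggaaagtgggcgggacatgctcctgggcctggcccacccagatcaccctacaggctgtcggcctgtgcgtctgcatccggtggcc
BBC3: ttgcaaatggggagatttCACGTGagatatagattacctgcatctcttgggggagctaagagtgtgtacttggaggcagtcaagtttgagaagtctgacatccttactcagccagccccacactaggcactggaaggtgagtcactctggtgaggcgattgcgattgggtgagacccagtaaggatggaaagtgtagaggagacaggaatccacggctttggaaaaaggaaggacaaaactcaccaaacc
Both strands were searched for the cAMP response element TGACGTCA, the C/EBP-ATF motif TGATGNAA, the FOXO motif GTAAACA and the E-box CACGTG. Over 35116 promoters of the same length these were found in 1.65%, 3.14%, 2.98% and 6.34%. The BBC3 window holds an E-box, and the BCL2 and BAK1 windows hold none of the motifs searched. GC content was 70% in the BCL2 window, 58% in that of BAK1 and 49.2% in that of BBC3, against a median of 58% over all promoters. Of the other members with an entry, the BCL2L11 window holds a FOXO motif, the HRK window a C/EBP-ATF motif, and those of BAX and of some BID starts an E-box. MCL1 had no entry.

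BCL2, the survival gene that gave the family its name, was lower with every NESPR-directed ASO. In IMR32 its normalized counts were 957, 906, 899 and 813 with ASO1, 1069, 968, 917 and 842 with ASO2, and 1177, 1120, 1189 and 1152 with NCA. In NGP they were 279, 247 and 238 with ASO2, 350, 318 and 362 with ASO10, and 393, 401 and 434 with NCA. Those of SK-N-BE(2)c were 136, 149 and 150 with ASO2, 230, 195 and 194 with ASO10, and 322, 296 and 336 with NCA. No ASO library of any line reached the lowest control of its line. The log2 fold changes were -0.38 ± 0.06 (SE) with ASO1 and -0.29 ± 0.06 with ASO2 in IMR32 (limma adjusted p 0.000157 and 0.00161), and -0.69 ± 0.09 with ASO2 and -0.26 ± 0.09 with ASO10 in NGP (adjusted p 8.81e-07 and 0.0242). SK-N-BE(2)c had the lowest, -1.13 ± 0.11 with ASO2 and -0.63 ± 0.11 with ASO10 (adjusted p 5.21e-10 and 1.83e-05), which for ASO2 is 2.19-fold less than with NCA. The call with ASO10 in NGP was lost without ASO10 replicate 2 (-0.20, adjusted p 0.114) or without NCA replicate 3 (-0.21, adjusted p 0.0739). The exact two-sided permutation p of single genes with fully separated groups was 0.0286 in IMR32 and 0.1 in the other lines, the smallest that 4 against 4 and 3 against 3 libraries allow.

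MCL1, a short-lived survival protein that PMAIP1 helps to degrade, went the other way from BCL2. Its normalized counts in IMR32 were 3335, 3045, 3197 and 3061 with ASO1, 3346, 3269, 3184 and 3293 with ASO2, and 2946, 2687, 2679 and 2735 with NCA. In NGP they were 8807, 8620 and 9047 with ASO2, 8119, 7650 and 7885 with ASO10, and 6992, 6456 and 7062 with NCA. SK-N-BE(2)c had 6034, 5869 and 6380 with ASO2, 4525, 4306 and 4427 with ASO10, and 4189, 4229 and 4276 with NCA. Each ASO group stood above all controls of its line. The log2 fold change was 0.19 ± 0.05 and 0.25 ± 0.05 with ASO1 and ASO2 in IMR32, 0.37 ± 0.05 and 0.21 ± 0.05 with ASO2 and ASO10 in NGP, while SK-N-BE(2)c with ASO2 had 0.53 ± 0.05 (highest limma adjusted p of the 5 calls 0.00289). With ASO10 in SK-N-BE(2)c it was 0.06 ± 0.05 (95% interval -0.04 to 0.16, adjusted p 0.284).

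BCL2L1 moved least. Its group means spanned 507 to 555 normalized counts (IMR32), 498 to 568 (NGP) and 759 to 904 (SK-N-BE(2)c), and its 6 log2 fold changes against NCA ran from -0.04 to 0.24. It was called once, with ASO10 in SK-N-BE(2)c, at 893, 856 and 964 normalized counts against 792, 754 and 751 with NCA (log2 fold change 0.24 ± 0.07, limma adjusted p 0.00375). In GENCODE 29, 43% of its exon bases lie across the antisense transcript ABALON, which had at most 11.1 normalized counts in IMR32, and whether counting used strand is not given in the sources used here. ABALON was not among the genes listed for NGP or SK-N-BE(2)c, so its level where BCL2L1 was called is not known. With ASO10 in SK-N-BE(2)c BCL2L1 was thus higher while BCL2 was lower in the same libraries.

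**Figure D2:**
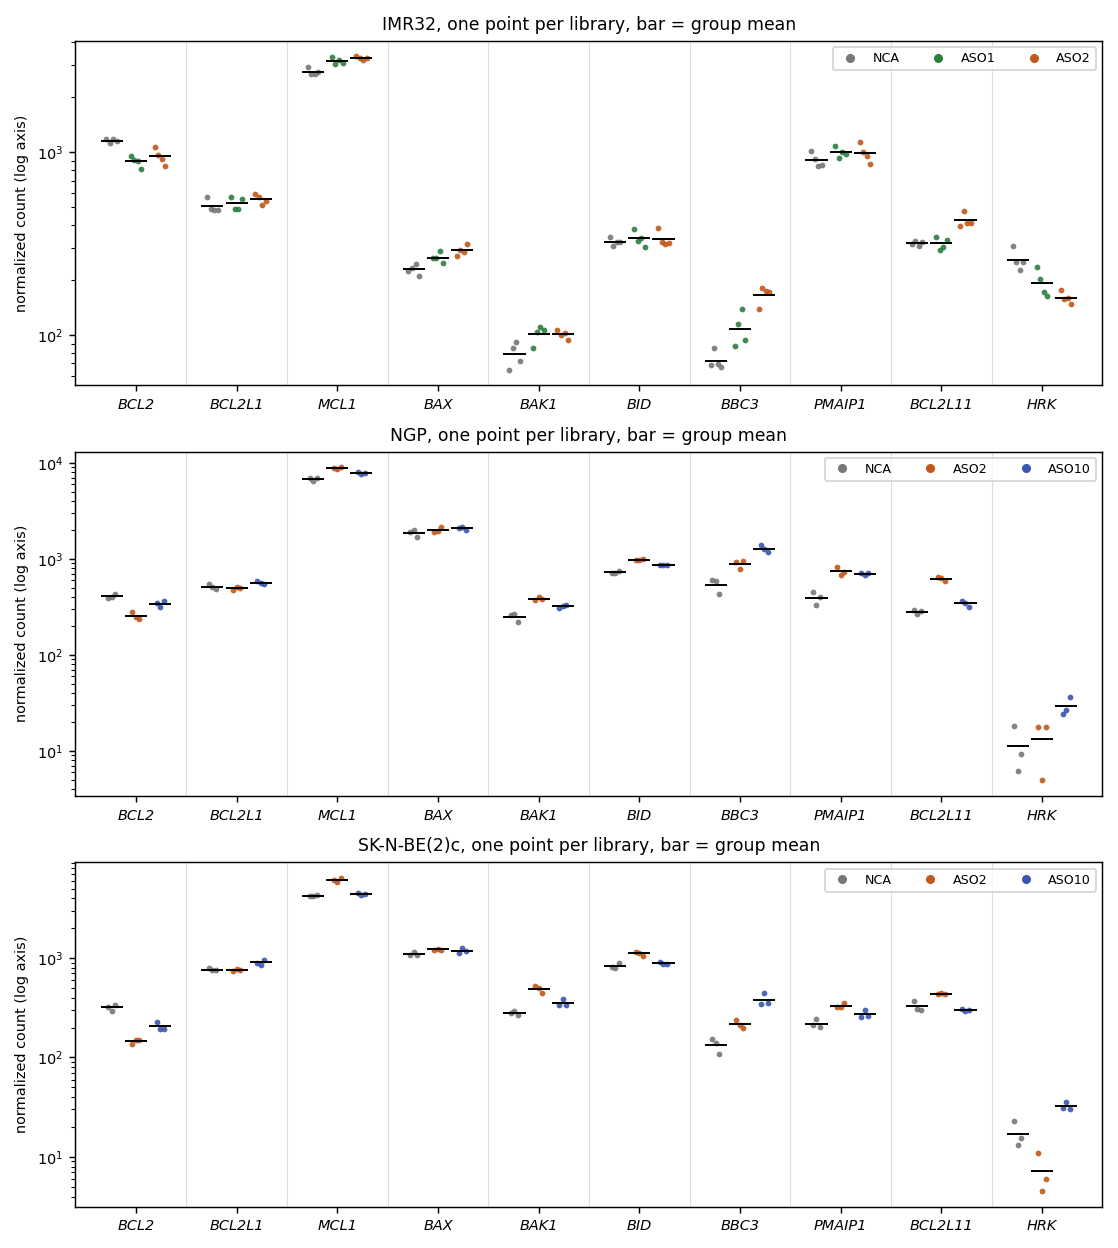
Normalized count (log axis) of the 10 genes in every library, 1 panel per line, with points for libraries coloured by ASO and bars at the group means. The BCL2 points of NCA sit above all ASO points in each line (1120 to 1189, 393 to 434 and 296 to 336 from the top panel down), and the BBC3 points of NCA sit below them.

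Of the effectors, BAK1 rose in every contrast and BAX little. BAK1 normalized counts in IMR32 were 84.9, 104, 111 and 106 with ASO1, 107, 101, 103 and 93.7 with ASO2, and 64.9, 85.1, 92.3 and 72.6 with NCA. In NGP they were 378, 405 and 379 with ASO2, 312, 323 and 333 with ASO10, and 262, 266 and 221 with NCA. Counts of SK-N-BE(2)c were 518, 504 and 443 with ASO2, 339, 387 and 335 with ASO10, and 283, 293 and 266 with NCA. The groups were apart except for ASO1 and NCA in IMR32. The log2 fold changes were 0.37 ± 0.12 with ASO1 and with ASO2 in IMR32 (limma adjusted p 0.0255 and 0.0225), 0.64 ± 0.10 and 0.37 ± 0.10 with ASO2 and ASO10 in NGP (adjusted p 3.09e-06 and 0.00174), while SK-N-BE(2)c had 0.79 ± 0.09 and 0.33 ± 0.09 (adjusted p 1.44e-08 and 0.00305). The IMR32 calls were the fragile ones: that of ASO1 was lost without any of ASO1 replicates 2, 3 and 4 or NCA replicates 1 and 4 (0.28 to 0.35, adjusted p 0.0581 to 0.0887), and that of ASO2 without ASO2 replicate 1 or NCA replicates 1 or 4 (0.28 to 0.34, adjusted p 0.0533 to 0.077). The pseudogene BAK1P1 had at most 18 normalized counts.

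BAX was called higher with both ASOs in IMR32, at 249 to 287 normalized counts with ASO1 and 270 to 314 with ASO2 against 210 to 246 with NCA, without overlap. The log2 fold changes were 0.21 ± 0.07 and 0.34 ± 0.07 (limma adjusted p 0.0341 and 0.0014). In NGP it stood at 1894 to 2131 with ASO2, 1988 to 2153 with ASO10 and 1684 to 2022 with NCA, and neither contrast was called (0.09 and 0.15, adjusted p 0.235 and 0.0508), although that of ASO10 passed with edgeR (adjusted p 0.0295), DESeq2 (0.0317), a pseudocount of 8 (0.0465), a mean of at least 50 (0.0493) and without ASO10 replicate 3 (0.0375) or NCA replicate 2 (0.0101). With ASO2, SK-N-BE(2)c had 1213 to 1236 against 1074 to 1153 (0.15 ± 0.06, adjusted p 0.0372), and with ASO10 1125 to 1249 (0.11, adjusted p 0.146). The call in SK-N-BE(2)c was lost when libraries were scaled to the same total (0.01, adjusted p 0.883), with no filter (0.0713), with no trend (0.0548) and without any of ASO2 replicates 1, 2 and 3 or NCA replicates 1 and 3 (0.13 to 0.15, adjusted p 0.0557 to 0.102). The ASO1 call in IMR32 was lost without ASO1 replicates 2 or 3 or NCA replicates 1, 2 or 4 (0.17 to 0.23, adjusted p 0.0521 to 0.12), with no filter (0.0684) and with DESeq2 (0.0656).

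Among the BH3-only genes BBC3, which is induced by several kinds of stress, rose most steadily. In IMR32 its normalized counts were 86.7, 115, 138 and 93.6 with ASO1, 139, 182, 173 and 171 with ASO2, and 68.4, 85.1, 69.2 and 67.1 with NCA. In NGP they were 920, 783 and 956 with ASO2, 1395, 1278 and 1173 with ASO10, and 603, 585 and 428 with NCA. For SK-N-BE(2)c they were 238, 210 and 199 with ASO2, 349, 445 and 354 with ASO10, and 154, 141 and 109 with NCA. No control library reached an ASO library of its line, although ASO1 replicate 1 in IMR32 was within 1.6 counts of the highest control. The log2 fold changes were 0.56 ± 0.13 with ASO1 and 1.19 ± 0.13 with ASO2 in IMR32 (limma adjusted p 0.00353 and 2e-06), 0.73 ± 0.10 with ASO2 and 1.26 ± 0.10 with ASO10 in NGP (adjusted p 9.75e-07 and 1.09e-10), while SK-N-BE(2)c had 0.69 ± 0.13 and 1.50 ± 0.13 (adjusted p 2.46e-05 and 5.26e-11). With ASO10 this is a 2.84-fold level in SK-N-BE(2)c and a 2.40-fold level in NGP.

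PMAIP1, whose product binds MCL1, rose in SK-N-BE(2)c and NGP. In NGP its normalized counts were 819, 675 and 728 with ASO2, 721, 675 and 706 with ASO10, and 449, 331 and 403 with NCA. Those of SK-N-BE(2)c were 324, 324 and 350 with ASO2, 256, 301 and 259 with ASO10, and 210, 244 and 202 with NCA. The ASO groups lay above the controls in both lines. The log2 fold changes were 0.91 ± 0.09 and 0.84 ± 0.09 in NGP (limma adjusted p 8.54e-09 and 4.13e-08), and those of SK-N-BE(2)c were 0.60 ± 0.10 and 0.31 ± 0.10 (adjusted p 8.51e-06 and 0.0109). The last was lost without ASO10 replicate 2 (0.24, adjusted p 0.0774) or NCA replicate 3 (0.26, adjusted p 0.0544). In IMR32 the groups overlapped (933 to 1080 with ASO1, 868 to 1145 with ASO2, 840 to 1021 with NCA). The changes of 0.14 and 0.12 there were not called (limma adjusted p 0.182 and 0.221). With the replicate number as a block in the model they were called (limma adjusted p 0.0122 and 0.0235).

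BCL2L11, the BIM gene, rose with ASO2 in each line and with ASO10 in NGP. In NGP its normalized counts were 643, 629 and 584 with ASO2, 364, 348 and 320 with ASO10, and 294, 269 and 284 with NCA. The SK-N-BE(2)c libraries had 433, 442 and 439 with ASO2, 308, 294 and 300 with ASO10, and 369, 311 and 297 with NCA. In IMR32 they were 346, 291, 302 and 332 with ASO1, 394, 479, 410 and 413 with ASO2, and 314, 328, 308 and 323 with NCA. ASO2 libraries stood above all others of their line, and the ASO1 libraries in IMR32 and ASO10 libraries in SK-N-BE(2)c overlapped with the controls. With ASO2 the log2 fold change by limma was 1.13 ± 0.09 in NGP, 0.41 ± 0.07 in IMR32 and 0.43 ± 0.09 for SK-N-BE(2)c (adjusted p 4.87e-11, 0.000234 and 0.000156). With ASO10 it was 0.28 ± 0.09 in NGP (adjusted p 0.00766), and -0.11 ± 0.09 for SK-N-BE(2)c (adjusted p 0.32), and with ASO1 in IMR32 it was 0.00 ± 0.07 (95% interval -0.15 to 0.15, adjusted p 0.977). Of its exon bases 10.9% lie across the oppositely placed MIR4435-2HG, which had 4.39 to 90.6 normalized counts.

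BID, which links death receptors to the mitochondrion once caspase-8 cuts it, rose in NGP (0.44 ± 0.06 with ASO2, 0.25 ± 0.06 with ASO10), and SK-N-BE(2)c had a rise with ASO2 (0.41 ± 0.07), with limma adjusted p of 2.49e-06, 0.002 and 4.35e-06. In those lines it stood at 967 to 1009 normalized counts with ASO2, 857 to 874 with ASO10 and 709 to 758 with NCA (NGP), and at 1040 to 1160, 866 to 905 and 795 to 886 (SK-N-BE(2)c). ASO10 in SK-N-BE(2)c overlapped with NCA, as did both ASOs in IMR32 (303 to 384 against 308 to 342), where the changes were 0.06 and 0.05 and not called.

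HRK had no single direction. In IMR32 it fell from 306, 252, 226 and 250 normalized counts with NCA to 236, 203, 172 and 165 with ASO1 and 177, 157, 159 and 147 with ASO2 (by limma, -0.42 ± 0.11 and -0.68 ± 0.11 in log2, adjusted p 0.00643 and 9.72e-05). ASO1 overlapped with NCA and ASO2 did not. In the other lines it was near the filter on low values, at 18.2, 6.20 and 9.23 with NCA (NGP) and 23.0, 13.1 and 15.4 (SK-N-BE(2)c). ASO10 gave 24.5, 26.6 and 36.5 (NGP) and 30.7, 35.8 and 30.1 (SK-N-BE(2)c), above all controls (1.41 ± 0.42 and 0.90 ± 0.36, adjusted p 0.00664 and 0.0339). ASO2 gave 17.6, 4.94 and 17.8 in NGP (0.19 ± 0.42, adjusted p 0.728), and SK-N-BE(2)c had 11, 4.53 and 6.0 with it, below all controls (-1.19 ± 0.36, adjusted p 0.005). The ASO10 call in SK-N-BE(2)c was lost without any of ASO10 replicates 1, 2 and 3 or NCA replicates 2 and 3 (0.74 to 0.95, adjusted p 0.064 to 0.126), and with no filter (adjusted p 0.106).

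**Figure D3:**
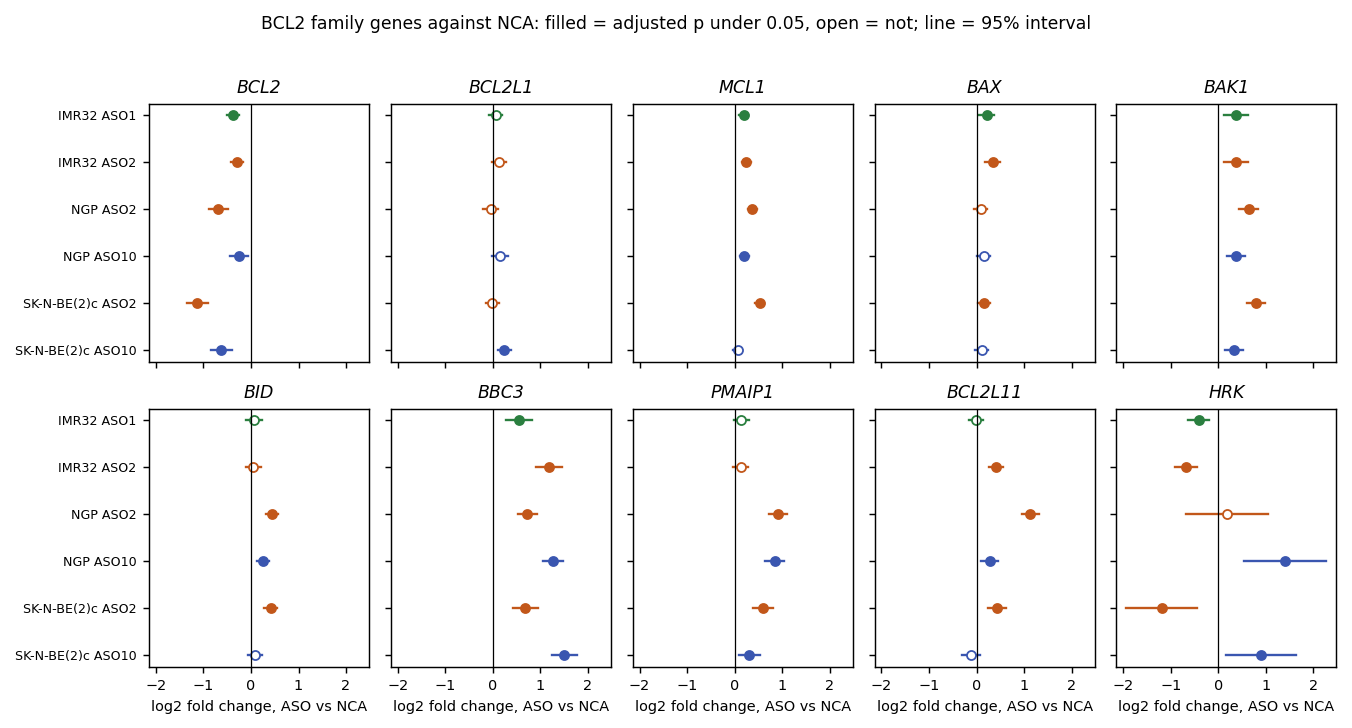
Log2 fold change of each gene against NCA, 1 panel per gene and 1 row per line and ASO, with the 95% interval as a line; filled circles have an adjusted p under 0.05 and open ones do not. BCL2 lies left of 0 in all 6 rows (-1.13 to -0.26), BAK1 (0.33 to 0.79) and BBC3 (0.56 to 1.50) lie right of it in all 6, and HRK lies on both sides (-1.19 to 1.41).

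Counted by contrast, more members were called higher than lower. Because members were chosen with earlier results of these data known, the shares of all genes beside these counts are a description only. In IMR32 with ASO1, 4 were higher and 2 lower, against 13.6% and 14.4% of all genes tested, and with ASO2 5 were higher and 2 lower, against 17.6% and 14.8%. In NGP with ASO2, 6 were higher and 1 lower (30.6% and 28.1% of all genes), and with ASO10 7 and 1 (26.8% and 27.6%). For SK-N-BE(2)c with ASO2, 7 were higher and 2 lower (33.6% and 33.4%), and with ASO10 5 and 1 (27.8% and 31.1%). Both directions together, the counts with ASO2 in NGP and with ASO10 in SK-N-BE(2)c are not far from the share of all genes. BCL2 was the lower member in each of these, joined by HRK in IMR32 and in the SK-N-BE(2)c contrast of ASO2. The median log2 fold change of the 10 members was 0.10, 0.19, 0.40, 0.27, 0.42 and 0.17 in that order, where the median of all genes was within 0.04 of 0. Groups did not overlap for 4 and 7 members in IMR32 (27.6% and 30.4% of all genes), for 7 and 9 in NGP (62.4% and 59.1%), and SK-N-BE(2)c had 9 and 7 (69.3% and 64.7%). The counts of 7 with ASO2 in NGP and with ASO10 in SK-N-BE(2)c are near that share. In SK-N-BE(2)c and NGP the columns of NCA replicates 2 and 3 are named NCA2, and whether that is another control oligonucleotide than that of replicate 1 is not given in the sources used here. Without NCA replicate 1, the only call of a member against NCA lost in these lines was that of BAX with ASO2 in SK-N-BE(2)c (0.13, adjusted p 0.102).

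Between ASO2 and ASO10, 8 of the 10 members were called in NGP (58.6% of all genes were) and 9 for SK-N-BE(2)c (65.4%). The NGP count was 6 to 7 with any 1 library left out and 5 with libraries scaled to the same total, which is near the share of all genes. BBC3 was higher with ASO10, with ASO2 minus ASO10 at -0.53 ± 0.10 in NGP, and SK-N-BE(2)c at -0.82 ± 0.13 on the log2 scale (adjusted p in limma 6.54e-05 and 2.06e-06). HRK was also higher with ASO10 (-1.22 ± 0.42 and -2.09 ± 0.36). BCL2L11 was higher with ASO2 (0.85 ± 0.09 and 0.54 ± 0.09, adjusted p 6.36e-09 and 8.82e-06), and BCL2 was lower with it (-0.43 ± 0.09 and -0.50 ± 0.11, adjusted p 0.00035 and 0.00022). MCL1 (0.16 and 0.46), BAK1 (0.26 and 0.46) and BID (0.19 and 0.33) were higher with ASO2 in both lines, and BCL2L1 was lower (-0.19 and -0.25). PMAIP1 was higher with ASO2 in SK-N-BE(2)c (0.29, adjusted p 0.0143) and was not called in NGP (0.08, 95% interval -0.12 to 0.27). BAX was called in neither line (-0.06, interval -0.20 to 0.07, and 0.04, interval -0.09 to 0.17). In NGP the calls of MCL1, BAK1 and BID were lost when libraries were scaled to the same total (adjusted p 0.0559, 0.0748 and 0.0875), as was PMAIP1 in SK-N-BE(2)c (0.126). Single libraries also ended calls in NGP: BCL2L1 without ASO2 replicates 1 or 3 or any ASO10 replicate (-0.21 to -0.16), BAK1 without ASO2 replicate 2 or ASO10 replicate 1 (0.23 and 0.24), BID without ASO2 replicate 3 (0.17), and HRK without ASO2 replicate 2 or ASO10 replicate 3 (-0.67 and -1.05). In that line the BCL2L1 call was also lost with TMM scaling (adjusted p 0.0554) and no filter (0.0585), and that of HRK with no trend (0.0726). PMAIP1 in SK-N-BE(2)c was lost without ASO2 replicate 3, ASO10 replicate 1 or ASO10 replicate 3 (0.25 to 0.26).

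**Figure D4:**
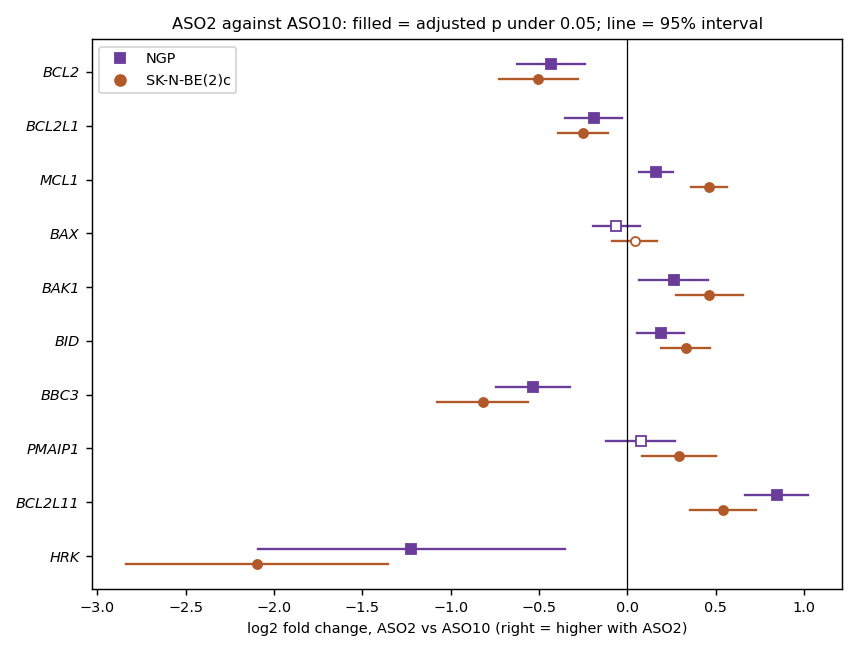
Log2 fold change between ASO2 and ASO10 for the 10 genes in NGP (squares) and SK-N-BE(2)c (circles), with the 95% interval as a line and filled symbols for an adjusted p under 0.05. BBC3 (-0.53 and -0.82), HRK (-1.22 and -2.09) and BCL2 (-0.43 and -0.50) lie on the ASO10 side, and BCL2L11 (0.85 and 0.54) lies on the ASO2 side in both lines.

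In IMR32 only BBC3 and BCL2L11 were called between ASO1 and ASO2, where 21.9% of all genes were, a like share. Both were lower with ASO1, BBC3 by -0.63 ± 0.13 and BCL2L11 by -0.41 ± 0.07 (limma adjusted p 0.00182 and 0.000308), with no overlap. The other 8 had differences of -0.13 to 0.26, and HRK missed the threshold at 0.26 ± 0.11 (adjusted p 0.092), which it passed when libraries were scaled to the same total (0.32, 0.0301) or without ASO1 replicate 4 (0.34, 0.0455).

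SK-N-BE(2)c and NGP, which share a scale, were tested for a difference in their response. Of the 10 members 2 differed with ASO2, where 16.7% of all genes did, and 2 with ASO10, where 16.9% did, which is near the background. The fold change of BCL2L11 was lower in SK-N-BE(2)c than in NGP, by -0.70 ± 0.12 with ASO2 and -0.39 ± 0.12 with ASO10 (limma adjusted p 0.000375 and 0.0269). BCL2 fell further in SK-N-BE(2)c with ASO2 (-0.44 ± 0.14, adjusted p 0.0295), and PMAIP1 rose less there with ASO10 (-0.53 ± 0.15, adjusted p 0.0149). For BBC3 the difference between lines was -0.04 with ASO2 (95% interval -0.42 to 0.34) and 0.24 with ASO10 (interval -0.14 to 0.62). The BCL2 difference was lost without NGP ASO2 replicate 1, NGP NCA replicates 1 or 2, SK-N-BE(2)c ASO2 replicate 1 or SK-N-BE(2)c NCA replicates 1 or 3 (-0.43 to -0.38, adjusted p 0.0543 to 0.0865). That of PMAIP1 was lost without NGP NCA replicate 2 (-0.41, adjusted p 0.0546), and that of BCL2L11 with ASO10 without NGP ASO10 replicate 1, NGP NCA replicate 2, SK-N-BE(2)c ASO10 replicate 2 or SK-N-BE(2)c NCA replicate 1 (-0.37 to -0.30, adjusted p 0.0602 to 0.0799). With no filter the BCL2 difference was lost (adjusted p 0.0527), and with TMM scaling that of BCL2L11 with ASO10 (-0.30, adjusted p 0.0792).

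Genes whose 6 log2 fold changes against NCA lay nearest to a member's were ranked by their root mean square difference over the 11594 genes tested in all 3 lines, as a description over contrasts that share controls. BCL2 was nearest to RASA1 (0.05), ZNF780B (0.08) and EBF1 (0.09). MCL1 was nearest to PRPF38B (0.04), RHOA (0.05) and FXR1 (0.05), and BAK1 to MIEF1 (0.06), VCPIP1 (0.07) and CAMLG (0.07). PMAIP1 lay nearest to PFKFB4 (0.09), ZNF766 (0.09) and CYB561D1 (0.10). BCL2L11 lay nearest to GNAI1 (0.13), to APAF1 (0.14), the scaffold of the apoptosome, and to PCYT1B (0.15). BBC3 and HRK had no neighbour as close: TGM1, ENSG00000267283 and C17orf107 were at 0.20 to 0.26 from BBC3, and ACADS, LAMTOR5-AS1 and PIP5KL1 at 0.29 to 0.34 from HRK.

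The rest of the death pathway moved both ways. The counts of each list below stand beside these shares of all genes called higher and lower. In IMR32 the shares were 13.6% and 14.4% with ASO1, and 17.6% and 14.8% with ASO2. In NGP they were 30.6% and 28.1% with ASO2, and 26.8% and 27.6% with ASO10. In SK-N-BE(2)c they were 33.6% and 33.4% with ASO2, and 27.8% and 31.1% with ASO10. Of 12 other BCL2 family genes 7 were tested in IMR32 and 8 in the other lines. In IMR32 3 rose with ASO1, and 5 rose and 1 fell with ASO2, BNIP3, a mitophagy receptor, in both contrasts (0.26 and 0.58). In NGP 3 rose and 3 fell with ASO2 and 2 rose and 4 fell with ASO10, the survival gene BCL2L2 being lower in both (-0.66 and -0.28). SK-N-BE(2)c had counts of 2 and 2 with ASO2 and 1 and 2 with ASO10. BCL2L2 fell in that line with ASO2 (-0.87) and was at -0.005 with ASO10 (limma adjusted p 0.966). In IMR32 BCL2L2 was not called (-0.16 with ASO1, -0.10 with ASO2).

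Downstream of the mitochondrion, 17 of 20 apoptosome, caspase and inhibitor genes were tested in IMR32 and NGP and 19 in SK-N-BE(2)c. With ASO1 and ASO2 in IMR32, 4 and 6 rose and 1 and 0 fell. With ASO2 5 rose and 5 fell in NGP, for SK-N-BE(2)c 8 rose and 5 fell, and with ASO10 3 rose and 6 fell in each. BIRC6, a giant inhibitor of apoptosis, fell with ASO2 and ASO10 in NGP (-0.50 and -1.17), and SK-N-BE(2)c had -0.54 and -1.11. In IMR32 it fell with ASO1 (-0.24) and rose with ASO2 (0.15). The caspase inhibitor XIAP rose with ASO2 and ASO10 in NGP (0.51 and 0.87) and SK-N-BE(2)c (0.35 and 0.67), as did CASP2 (0.56 and 0.22, then 0.71 and 0.18). In IMR32 XIAP was not called (-0.03 with ASO1, 0.12 with ASO2), and CASP2 rose with both ASOs (0.16 each). APAF1 rose with both ASOs in NGP (0.94 and 0.38), and the mitochondrial protease HTRA2 fell there (-0.52 and -0.20). In SK-N-BE(2)c APAF1 rose with ASO2 (0.54) and fell with ASO10 (-0.30). HTRA2 fell with both ASOs in that line (-0.46 and -0.28) and rose with ASO1 in IMR32 (0.24).

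Of 12 death receptor genes 7 were tested in IMR32 and 6 in the other lines. The death receptor gene FAS stood at 212 ± 7.49 (SD, n = 3) normalized counts with ASO2 and 162 ± 17.4 with ASO10 against 45.4 ± 5.46 with NCA in NGP, log2 fold changes of 2.20 and 1.81. TNFRSF10D, a decoy receptor for TRAIL, stood at 15.6 ± 1.74 and 29.6 ± 6.83 against 2.18 ± 0.49, a control level of about 2 reads that allows no firm fold. In all, 3 rose with ASO2 and 4 with ASO10 in NGP, and none fell. Both counts include TNFRSF10D, which passed the filter on low values only through its ASO libraries. Its place among the genes that rose was thus largely set by that filter. With each ASO 2 rose and 1 fell in SK-N-BE(2)c: the kinase RIPK1 rose (0.69 and 0.70) and CFLAR, which blocks caspase-8, fell (-0.37 and -0.61). The count with ASO10 in that line includes FAS, which passed the filter on low values only through the ASO10 libraries. In IMR32 1 rose and 1 fell with ASO1, and 2 rose and 1 fell with ASO2.

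Genes that act on the turnover of MCL1 and NOXA proteins, 10 tested in SK-N-BE(2)c and IMR32 and 9 in NGP, moved both ways, and the shares of all genes called higher and lower in each contrast are those given above for the members. For SK-N-BE(2)c 3 rose and 6 fell with ASO2 and 1 rose and 8 fell with ASO10, in NGP 3 rose and 5 fell and 2 rose and 4 fell, and in IMR32 0 rose and 2 fell with ASO1 (14.4% of all genes fell) and 4 rose and 3 fell with ASO2. The deubiquitinase USP13 had log2 fold changes of -1.36 and -1.92 with ASO2 and ASO10 in NGP and of -1.65 and -1.69 for SK-N-BE(2)c, and the F-box gene BTRC of -1.17 and -1.76 and of -1.25 and -1.77. FBXW7, another F-box gene, rose in NGP (1.01 and 0.35) and, in SK-N-BE(2)c, rose with ASO2 (0.64) and fell with ASO10 (-0.53). The kinase gene CDK5 fell in NGP (-0.40 and -0.61) and rose with ASO2 in IMR32 (0.31). USP9X, a deubiquitinase of MCL1, fell in SK-N-BE(2)c (-0.72 and -0.27).

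Of 9 transcription factor genes known to act on members, 9 were tested in IMR32, 7 in NGP and 8 for SK-N-BE(2)c. With ASO1 and ASO2 4 and 3 rose and 2 and 2 fell in IMR32, with ASO2 and ASO10 3 and 4 rose and 2 and 1 fell in NGP, and for SK-N-BE(2)c 3 and 4 rose and 3 and 1 fell. ATF3, a stress-induced factor, rose with each ASO, by 0.77 and 0.73 (IMR32), 1.16 and 1.49 (NGP) and 0.63 and 0.71 (SK-N-BE(2)c). DDIT3 (CHOP) rose in IMR32 (0.98 and 1.00) and SK-N-BE(2)c (0.22 and 0.80), ATF4 in NGP (0.48 and 0.81) and SK-N-BE(2)c (0.76 and 0.85), and JUN in IMR32 (1.17 and 0.68) and NGP (0.33 and 0.62). MYCN fell in SK-N-BE(2)c (-0.61 and -0.46).

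All 10 mitochondrial pore and shape genes were tested. In IMR32 2 and 3 rose with ASO1 and ASO2 and none fell, in NGP 4 rose and 1 fell with ASO2 and 3 rose and 4 fell with ASO10, and for SK-N-BE(2)c the counts were 6 and 3 and then 2 and 4. DNM1L, which drives mitochondrial fission, fell in NGP (-1.09 and -0.19) and SK-N-BE(2)c (-1.27 and -0.35). VDAC2, an outer membrane channel that holds BAK1 protein, rose in NGP (0.51 and 0.29), and the fusion gene MFN1 fell in SK-N-BE(2)c (-0.36 and -0.78).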

How the data were processed

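The authors' deposited signal is a gene count divided by 1 size factor per library: the labels call it a normalized count, and the steps between low values returned whole reads for 100% of values (within 0.05). Factors ran from 0.811 to 1.20. SK-N-BE(2)c and NGP share a scale and IMR32 was scaled apart, so line differences were tested only between the former. The submitters' processing notes name FastQC 0.11.8, cutadapt 1.18, STAR 2.6.0, HTSeq 0.6.1 and DESeq2 1.42.0, with hg19 and GRCh37. Per the labels' protocols, libraries were stranded total RNA (paired) or stranded mRNA (single-end). Which library had which is not given in the sources used here, nor are harvest time and use of strand in counting, so no within-kit value could be computed and kit and group cannot be told apart.

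For genes with a mean of at least 10 (17309 in IMR32, 14440 in NGP, 13556 for SK-N-BE(2)c, 14537 in the joint fit of the latter lines), limma 3.58.1 in R 4.3.3 tested log2(value + 1), with 1 mean per group, 1 model per line and a mean-variance trend. Benjamini-Hochberg adjustment covered all genes tested. The test was also run on simulated data with far fewer changed genes and the same dispersion for all genes. That setting differs from these data, so the run is not taken as support here. No pair of replicates matched within sampling noise (chi-square per degree of freedom at least 1.27). In IMR32 174 entries without a gene ID (0.172% of values) were left out, and 0 per-sample columns were unused. Lengths and overlaps come from GENCODE 29, promoters from RefSeq (GRCh38.p14, 9 of 10 members matched). The titles put all 3 NCA libraries of SK-N-BE(2)c and of NGP in 1 group, although the columns of replicates 2 and 3 read NCA2. NCA2 may name a second control oligonucleotide, in which case these fold changes are against a mix of controls.

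Members, gene lists and markers were chosen with earlier results of these data known. All members are named. Another list's gene is named when called in 1 direction in both contrasts against NCA of a line, if 1 of them reached 0.5 in size in log2 (at most 6 per list and line). Some genes of these lists and 1 motif are not reported here and were left out of the counts and sums. Marker lists were adrenergic, mesenchymal-type, fibroblast, immune, endothelial and epithelial. Alternatives covered scaling, pseudocount, filter, variance model, edgeR 4.0.16, DESeq2 1.42.0, a replicate block and each library left out.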

Additional observations from a re-analysis of the deposited data

Results flagged for a closer look

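The response of 3 members differed between NGP and SK-N-BE(2)c in 4 of 20 tests of the difference itself (SK-N-BE(2)c minus NGP, log2). This is near the share of all genes that differed, 16.7% with ASO2 and 16.9% with ASO10. BCL2L11 differed by -0.70 with ASO2 and -0.39 with ASO10, PMAIP1 by -0.53 with ASO10 and BCL2 by -0.44 with ASO2. Apart from BCL2L11 with ASO2, each of these calls was lost when certain single libraries were left out.

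In 3 of 30 gene and group pairs of IMR32, the groups with 4 libraries, 1 library stood far from the other 3, where chance alone flags about 1 in 20. BID was at 384 normalized counts in ASO2 replicate 1, BCL2L1 at 566 in NCA replicate 1 and BBC3 at 85.1 in NCA replicate 2, each the highest of its group. Replicate 1 was also highest in the other IMR32 groups for BID (381 with ASO1, 342 with NCA) and BCL2L1 (568 with ASO1, 593 with ASO2). Whether the libraries of that number share a shift is looked at below with the replicate block, and was not settled. Without NCA replicate 1, BCL2L1 was called higher with ASO2 (0.19, limma adjusted p 0.0405), which with all libraries it was not (0.13, adjusted p 0.153).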

How the results depend on the processing

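Of 1292 fold changes of members recomputed under other settings, 1252 kept their direction and side of the threshold, and of 840 recomputed with 1 library left out, 750 did. None of the 44 reversed values was called, before or after. The cause of the changes was not tested.

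Scaled to the same total, ASO2 against ASO10 in NGP had 5 members called instead of 8, and these values reversed: BCL2L11 with ASO1 in IMR32 (0.0170), MCL1 (0.0025) and BAK1 (0.0530) between ASO1 and ASO2, BAX between ASO2 and ASO10 in SK-N-BE(2)c (-0.0695), and the line differences of BCL2L1 (-0.0381) and BAX (-0.0105) with ASO2. This scaling moved the median of all genes with ASO2 in SK-N-BE(2)c from -0.02 to -0.15, and its calls from 4555 higher and 4523 lower to 3505 and 5612. The split went from 4689 and 4172 to 3678 and 5016 for ASO2 against ASO10 in SK-N-BE(2)c, and from 1588 and 2207 to 2352 and 1581 for ASO1 against ASO2. TMM scaling reversed BCL2L11 with ASO1 (0.0130), BAK1 between ASO1 and ASO2 (0.0073) and the line differences with ASO10 of BAX (0.0458) and BAK1 (0.0477), and left 1 line difference with ASO10 called. With no filter 1 line difference with ASO2 was called. On recovered reads, edgeR and DESeq2 gave BCL2L11 with ASO1 at 0.0052 and 0.0039, and BAK1 between ASO1 and ASO2 at 0.0104 and 0.0088.

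With 1 library left out, called line differences ran from 1 to 3 with ASO2 and from 0 to 3 with ASO10, 0 being without NCA replicate 2 of NGP. Ranges that crossed 0 were, against NCA, BCL2L11 with ASO1 (-0.0454 to 0.0368) and BID with ASO2 (-0.0195 to 0.0780) in IMR32, BCL2L1 (-0.0851 to 0.0051) and HRK (-0.14 to 0.74) with ASO2 in NGP, and BCL2L1 with ASO2 in SK-N-BE(2)c (-0.0276 to 0.0122). Between ASO1 and ASO2 they were BAK1 (-0.0451 to 0.0822), BID (-0.0443 to 0.0801) and PMAIP1 (-0.0464 to 0.0863). Among line differences they were BCL2L1 (-0.0175 to 0.0726), BID (-0.0592 to 0.0201) and BBC3 (-0.19 to 0.12) with ASO2, and BAX (-0.10 to 0.0291) and BAK1 (-0.11 to 0.0418) with ASO10.

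In no pair of groups did all correlations between the deviations of same-numbered libraries pass 0.1 (-0.06 to 0.33 overall). They reached 0.33 in IMR32 and at most 0.12 in the other lines. Replicate 1 was the highest library of each IMR32 group for BCL2L1, MCL1, BID, PMAIP1 and HRK. Whether same-numbered libraries of IMR32 pair is thus not settled. With the replicate number as a block, PMAIP1 was called in IMR32 (0.14 with ASO1 and 0.12 with ASO2, limma adjusted p 0.0122 and 0.0235), as were BCL2L1 with ASO2 there (0.13, 0.0339), HRK between ASO1 and ASO2 (0.26, 0.00704) and BAX with ASO10 in NGP (0.15, 0.0454). The block ended no call of a member. HRK in SK-N-BE(2)c and NGP, at 4.53 to 36.5 normalized counts, is the member that depth limits most.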

Other observations

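Some genes outside the members, chosen after their values were seen, are given here for each ASO side by side. BMF, another BH3-only gene, stood at 135 ± 18.5 (SD, n = 3) normalized counts with ASO2 against 35.0 ± 2.79 with NCA in NGP, and at 182 ± 15.2 against 47.7 ± 7.07 in SK-N-BE(2)c, log2 fold changes of 1.91 in each. With ASO10 it stood at 19.5 ± 6.30 in NGP (-0.85, limma adjusted p 0.0023) and at 40.3 ± 7.09 in SK-N-BE(2)c (-0.24, adjusted p 0.257). It was called higher in IMR32 too (0.30 with ASO1, 0.47 with ASO2). MARCHF5, a mitochondrial ubiquitin ligase, rose with ASO2 in SK-N-BE(2)c and NGP (0.72 and 0.59) and with ASO10 fell in SK-N-BE(2)c (-0.26) and was at -0.01 in NGP (adjusted p 0.914). In IMR32 it rose with ASO2 (0.26) and was at 0.12 with ASO1 (adjusted p 0.158). BNIP3 fell with ASO10 in SK-N-BE(2)c and NGP (-1.19 and -1.07), and with ASO2 it rose in NGP (0.37) and was at 0.07 in SK-N-BE(2)c (adjusted p 0.554), beside its rise with both ASOs in IMR32. FAS, which rose in NGP, stood at 121 ± 5.87 (n = 4) with ASO2 against 57.9 ± 6.68 with NCA in IMR32 (1.06) and at 59.4 ± 4.43 with ASO1 (0.04, adjusted p 0.826). In SK-N-BE(2)c it stood at 27.7 ± 8.42 (n = 3) with ASO10 against 7.41 ± 1.41 with NCA (1.75) and at 6.29 ± 1.62 with ASO2 (-0.22, limma adjusted p 0.654). There FAS passed the filter on a mean of at least 10 only through the ASO10 libraries. Its rise with ASO10 in that line is therefore given without a p-value.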
